A study of Mus musculus with 19 samples.

Results

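The genes described here are 6 genes known from the uterine glands of the mouse: Foxa2, Cxcl15, Prss28, Prss29, Spink1 and Wfdc2. They were taken as a given list and matched by their symbols in the GENCODE annotation of GRCm38 to the gene identifiers of the deposited counts, and each of the 6 had 1 entry among the 49089 genes. Levels are given as CPM, the counts of a gene scaled to the library's total, and as RPKM, which also divides by gene length. All 6 passed the filter of 3 CPM in 3 or more of the 19 libraries, which left 17222 genes to test. Endometrium of wild-type C57Bl/6 females was scraped from the myometrium and its total RNA was sequenced, each library coming from a pooled sample. The estrus group (CONT, n = 3, numbered 1, 2 and 4) held virgin females taken late in the evening, around ovulation, on the day proestrus was detected, and their age is not given in the sources used here. Females of the INT group (n = 4) were aged 8 to 14 weeks, had mated with intact BALB/c males and were taken on day 3.5 post-coitum (pc), shortly before embryo attachment. Females of the SVX, SVX_VAS and VAS groups (n = 4 each) were taken at the same time, having mated with BALB/c males that had been surgically modified. The library names and the sample titles of these last 3 groups name different surgeries, so the groups are called here by their library names and no surgery is assigned to them. No gene was altered in the females of any group. All 4 mated groups were compared with the same 3 estrus libraries, so that these 4 comparisons are not independent of each other.

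The glands of the uterus are tubes of epithelium that run from the lumen into the stroma, and their secretions are needed for implantation in the mouse. FOXA2 is a forkhead transcription factor found in the nuclei of the gland cells and absent from the luminal epithelium of the adult mouse uterus, and loss of Foxa2 from the uterus leaves mice without glands or with glands that do not support implantation. Cxcl15 encodes a secreted chemokine known from lung epithelium and uterine glands. Prss28 and Prss29 encode the implantation serine proteases ISP1 and ISP2, Spink1 encodes a secreted Kazal-type inhibitor of trypsin, and Wfdc2 encodes a secreted protein with WAP domains that is made by many epithelia.

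Totals were 15487788 to 31781270 counts per library in the estrus group and 12661266 to 20525568 in the mated groups, so that 3 counts, the limit a count of 0 allows, stood for 0.0944 to 0.237 CPM, counting error only. VAS replicates 2 and 3 stood apart from the other 17 libraries: their 10 largest genes took 1.11% and 1.07% of the counts against 3.74% to 5.81% elsewhere, and Malat1, a nuclear RNA, took 0.0703% and 0.0723% against 0.724% to 1.41%. Values of the 6 genes in VAS against estrus are therefore also given without these libraries where that ends a call or moves a value by over 1.5 times. The 8 epithelium markers (Epcam, Krt7, Krt8, Krt18, Krt19, Cdh1, Cldn3 and Cldn7) were all detected, with a summed level of 4050 to 5530 CPM at estrus and 567 to 2720 CPM in the mated libraries. The 4 mast cell markers, which include the tryptase Tpsb2, summed to at most 1.87 CPM in any library. In bulk tissue of this kind, fewer cells of a type and less RNA per cell cannot be told apart.

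The 6 genes changed in different ways between estrus and day 3.5 pc. Foxa2, Cxcl15 and Spink1 were higher in every one of the 16 mated libraries than in any estrus library, and Wfdc2 was lower in every one. Prss28 and Prss29 were above all estrus libraries in 14 and 10 of the 16 mated libraries and ranged over more than 2 orders of magnitude among them. A gene was called when its FDR in edgeR's quasi-likelihood test (Benjamini-Hochberg) was at most 0.05 and its change reached 1.5-fold. By this criterion 4 of the 6 genes were called in INT against estrus, where 33.6% of all genes tested were called. In the same way 6 of 6 were called in SVX against a background of 41.5%, 4 of 6 in SVX_VAS against 38.5% and 5 of 6 in VAS against 40.4%. Split by direction, the background was 20.9% higher and 12.7% lower in INT, 23.1% and 18.4% in SVX, 22.1% and 16.4% in SVX_VAS, and 23.2% and 17.2% in VAS. Of the 6 genes, 4 were called higher and 0 lower in INT, 5 and 1 in SVX, 3 and 1 in SVX_VAS, and 4 and 1 in VAS. Cxcl15, Prss28 and Spink1 reached 3 CPM in 0 of 3 estrus libraries, and Foxa2 and Prss29 in 1 of 3. All of these genes passed the filter on low counts only through the mated groups, where they are high. Wfdc2 alone reached 3 CPM in 3 of 3 estrus libraries. The counts of called genes are therefore a description and no support. Mated and estrus libraries were fully apart for 4 of the 6 genes in INT (62.3% of all genes tested), 6 in SVX (70.9%), 4 in SVX_VAS (67.5%) and 5 in VAS (55.0%). The median logFC of all genes tested lay between -0.07 and -0.01 in the 4 comparisons.

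**Figure D1:**
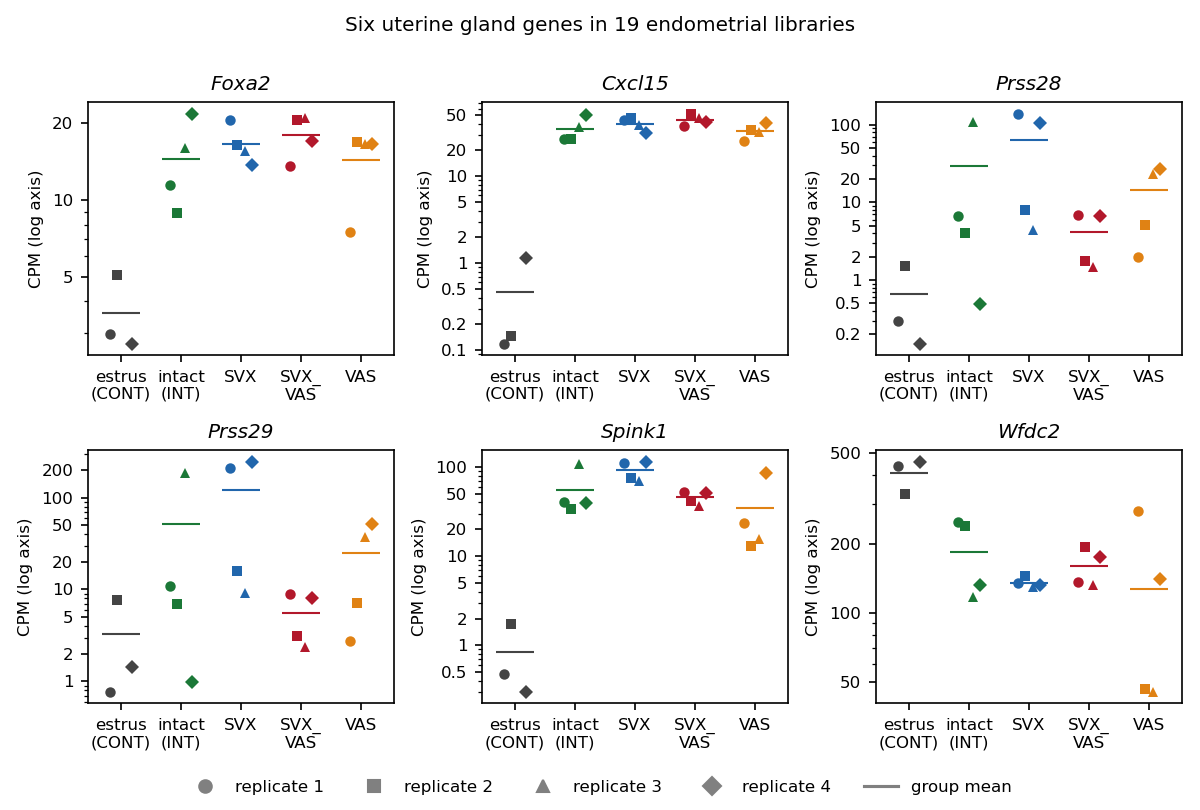
CPM (log axis) of each gene in each of the 19 libraries, by group, with a marker for each replicate number and a line at the group mean. Foxa2, Cxcl15 and Spink1 lie higher in all 16 mated libraries than at estrus and Wfdc2 lies lower, while Prss28 spreads from 0.490 to 139 CPM among the mated libraries.

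Foxa2, the regulator among the 6 genes, lies on chromosome 2 from 148042877 to 148046969 on the minus strand (GRCm38, ENSMUSG00000037025.11, protein coding). Its level was 2.97, 5.06 and 2.73 CPM in estrus replicates 1, 2 and 4. It was 11.4, 8.89, 16 and 21.8 CPM in INT replicates 1 to 4 and 20.6, 16.4, 15.5 and 13.7 CPM in SVX replicates 1 to 4. The lowest mated value of these 2 groups was thus above the highest estrus value. In SVX_VAS replicates 1 to 4 it was 13.6, 20.5, 21.0 and 17.1 CPM, and in VAS replicates 1 to 4 it was 7.50, 16.9, 16.6 and 16.6 CPM. VAS replicate 1 was the lowest of the 16 mated libraries and still lay above estrus.

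Group means of Foxa2 were 3.59 ± 1.28 CPM at estrus (SD, n = 3), 14.5 ± 5.69 in INT, 16.5 ± 2.95 in SVX, 18.0 ± 3.42 in SVX_VAS and 14.4 ± 4.60 in VAS (SD, n = 4 each). The logFC against estrus was 2.0 (SE 0.35, FDR 2.19e-04) in INT and between 1.99 and 2.31 in the other mated groups (highest FDR 1.74e-04). Foxa2 rose in all 4 comparisons, and its change in INT ranked 849 of 17222. The other FOXA factors, Foxa1 and Foxa3, did not pass the filter, with at most 17 and 7 counts in any library.

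Cxcl15, the chemokine, lies on chromosome 5 from 90794534 to 90803067 on the plus strand (ENSMUSG00000029375.6). It was close to absent at estrus, with 2, 4 and 15 counts in replicates 1, 2 and 4 (0.119, 0.144 and 1.14 CPM). In the mated libraries it had 351 to 943 counts. Its level was 26.5, 26.5, 37.1 and 50.7 CPM in INT replicates 1 to 4 and 44.0, 46.2, 38.7 and 31.6 CPM in SVX replicates 1 to 4. It was 37.9, 52.3, 46.1 and 41.6 CPM in SVX_VAS replicates 1 to 4 and 25.3, 34.4, 32 and 40.8 CPM in VAS replicates 1 to 4. No mated library was near the estrus level.

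Group means of Cxcl15 were 0.467 ± 0.581 CPM at estrus (SD, n = 3), 35.2 ± 11.5 in INT, 40.1 ± 6.49 in SVX, 44.5 ± 6.21 in SVX_VAS and 33.1 ± 6.40 in VAS (SD, n = 4 each). The logFC was 6.45 (SE 0.52, FDR 1.12e-06) in INT, where it ranked 16 of 17222 genes, and lay between 6.36 and 6.79 in the other mated groups (highest FDR 7.92e-07). The size of this change rests on few counts at estrus, and it was 7.96 in INT without estrus replicate 4, which held most of them. Cxcl15 was also the steadiest of the 6 genes among mated females, with a 2.07-fold range over the 16 libraries.

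Foxa2 and Cxcl15 rose and fell together from one mated library to the next. On log2 CPM, Pearson's r was 0.89 and Spearman's rho 0.82 over the 16 mated libraries, and r was 0.87 within groups. Leaving out each library in turn gave r of 0.86 to 0.92, leaving out the pair of libraries farthest from the median of Foxa2 gave 0.84, and leaving out VAS replicates 2 and 3 gave 0.94. These points share the makeup of each tissue sample and the scaling of each library, and r is given as a description only. Library by library, VAS replicate 1 was lowest for both genes and INT replicates 2 and 1 came next.

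**Figure D2:**
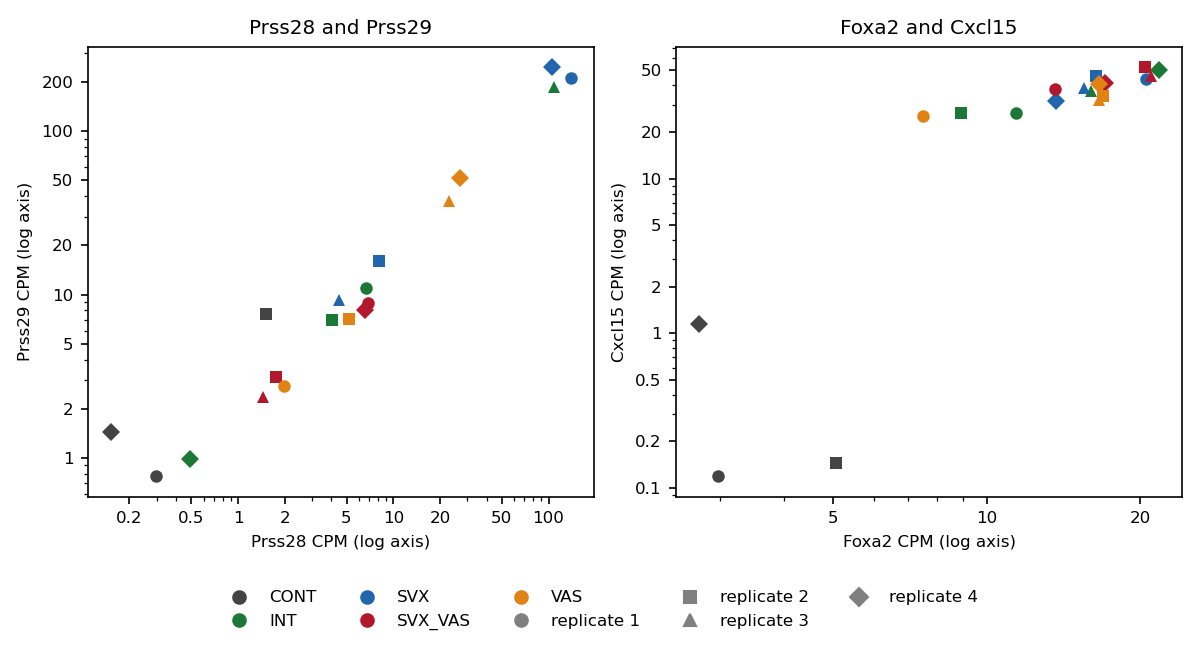
CPM of Prss29 against Prss28 (left) and of Cxcl15 against Foxa2 (right) in the 19 libraries, both axes logarithmic, with colours for groups and markers for replicate numbers. Prss28 and Prss29 lie along 1 line across all mated groups, and on the right the estrus libraries lie far below the mated ones for Cxcl15.

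The sequence just upstream of Cxcl15 is shown because forkhead factors such as FOXA2 bind DNA at short motifs that include TGTTTAC and TATTTAC. It is the 250 bases before the RefSeq start of the gene, chr5:90794284-90794533 on the plus strand (GRCm38.p6), with TATTTAC and the TATA-like TATAAA in capitals.
Cxcl15: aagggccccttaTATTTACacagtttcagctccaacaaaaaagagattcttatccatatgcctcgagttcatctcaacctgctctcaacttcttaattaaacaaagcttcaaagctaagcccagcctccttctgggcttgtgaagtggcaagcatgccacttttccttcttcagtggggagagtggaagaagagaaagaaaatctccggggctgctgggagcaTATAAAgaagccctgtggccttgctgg

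Counted from the start, with -1 the base just before it, the TATTTAC of Cxcl15 lies at -238 to -232 and its TATAAA at -27 to -22. Both strands were searched. TATTTAC was present in 2.73% of 32851 RefSeq promoter windows, TGTTTAC in 3.17% and TATAAA in 12.4%. TGTTTAC was in none of the windows read for Foxa2 (3 windows), Cxcl15, Prss28, Prss29 and Wfdc2 (2 windows). Spink1 was left out of this search, and no window of it was read. In these windows TATTTAC was found in Cxcl15 only, and the windows of Wfdc2 held none of the 3 motifs. A match of these letters is a description of the sequence, and binding was not measured.

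Prss28 and Prss29, the implantation serine proteases, are neighbours on the plus strand of chromosome 17 (Prss28, ENSMUSG00000024171.4, 25308646 to 25311876; Prss29, ENSMUSG00000034039.7, 25318654 to 25322681) with Prss29 starting 6778 bases after the last base of Prss28. Prss28 had 0.297, 1.51 and 0.152 CPM in estrus replicates 1, 2 and 4. It had 6.66, 4.03, 108 and 0.490 CPM in INT replicates 1 to 4 and 139, 8.10, 4.46 and 106 CPM in SVX replicates 1 to 4. Both groups thus held some libraries far above the rest, and INT also held the lowest of all mated libraries. In SVX_VAS replicates 1 to 4 it had 6.86, 1.77, 1.45 and 6.62 CPM, and in VAS replicates 1 to 4 it had 1.97, 5.18, 23.0 and 26.9 CPM. The SVX_VAS group held no library above 6.86 CPM, and both INT replicate 4, at 7 counts, and SVX_VAS replicate 3 lay below the highest estrus library.

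Prss29 gave nearly the same picture at a higher level. It had 0.773, 7.61 and 1.44 CPM in estrus replicates 1, 2 and 4, so that estrus replicate 2 was as high as several mated libraries. It had 11.0, 7.0, 186 and 0.980 CPM in INT replicates 1 to 4 and 211, 16, 9.22 and 245 CPM in SVX replicates 1 to 4. It had 8.89, 3.11, 2.37 and 8.09 CPM in SVX_VAS replicates 1 to 4 and 2.76, 7.09, 37.5 and 51.6 CPM in VAS replicates 1 to 4. The high libraries were the same as for Prss28, namely SVX replicates 1 and 4 and INT replicate 3, followed by VAS replicates 4 and 3.

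Over the 16 mated libraries the highest value was 283 times the lowest for Prss28 and 250 times for Prss29. The SD of log2 CPM within mated groups was 2.25 for both, ranks 116 and 118 of the 17222 genes tested, whose median was 0.26 and whose 95th percentile was 1.52. For Foxa2 and Cxcl15 it was 0.44 and 0.31. The 2 proteases went together: r on log2 CPM was 0.99 over the 16 mated libraries (rho 0.96, 1.0 within groups), and each was the nearest gene to the other among all genes tested. Per length, Prss28 stood at 0.427 to 0.810 of the level of Prss29 (ratio of RPKM, median 0.587) in the mated libraries and at 0.104 to 0.381 in the 3 estrus libraries, where the counts of Prss28 were 2 to 42.

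Neither protease went with Foxa2 or Cxcl15 among mated females. For Prss28, r over the 16 mated libraries was 0.04 with Foxa2 and -0.15 with Cxcl15, and for Prss29 it was 0.05 and -0.14. INT replicate 4 shows this most plainly, with the highest Foxa2 of all libraries and the lowest Prss28 and Prss29 of the mated ones.

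The wide spread set what the comparisons with estrus could show. Group means of Prss28 were 0.652 ± 0.744 CPM at estrus (SD, n = 3), 29.9 ± 52.4 in INT, 64.2 ± 68.3 in SVX, 4.18 ± 2.96 in SVX_VAS and 14.3 ± 12.5 in VAS (SD, n = 4 each). It rose in INT (logFC 5.34, SE 1.83, FDR 0.0238), in SVX (6.43, SE 1.91, FDR 0.00862) and in VAS (4.26, SE 1.76, FDR 0.0488), and it was not called in SVX_VAS (2.5, SE 1.69, FDR 0.231; 2.11 to 4.13 with 1 library left out, the highest without estrus replicate 2). With 1 library left out its logFC in SVX lay between 5.76 and 8.07, and the call held. Without INT replicate 3 its logFC in INT was 2.30 and no longer called (FDR 0.207). The call in INT was also lost without estrus replicate 1 (FDR 0.0854) or 4 (FDR 0.0786). The call in VAS was lost without estrus replicate 1, 2 or 4 and without VAS replicate 3 or 4 (FDR 0.0630 to 0.136), and without VAS replicates 2 and 3 together (FDR 0.0886). It was also lost with no filter on low counts (FDR 0.0688) and with a filter at 1 CPM (FDR 0.0525), and that in INT with only the groups compared in the fit (FDR 0.0501).

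Prss29 had means of 3.27 ± 3.77 CPM at estrus (SD, n = 3), 51.3 ± 90.0 in INT, 120 ± 125 in SVX, 5.61 ± 3.35 in SVX_VAS and 24.7 ± 23.7 in VAS (SD, n = 4 each). It rose in SVX (logFC 5.11, SE 1.76, FDR 0.0205), a call that was lost without estrus replicate 1 (FDR 0.0760) or 4 (FDR 0.0707). Its logFC in SVX lay between 4.52 and 6.78 with 1 library left out. It was not called in INT (3.89, SE 1.67, FDR 0.0650), in VAS (2.83, SE 1.60, FDR 0.141) or in SVX_VAS (0.70, SE 1.54, FDR 0.739). Without INT replicate 4, the lowest of its group, Prss29 passed in INT with a logFC of 4.29 (FDR 0.0416), whereas without INT replicate 3 it was 0.83 (FDR 0.657). With 1 library left out it lay between 2.19 (without VAS replicate 4) and 4.49 in VAS, and between 0.25 (without estrus replicate 1) and 2.36 in SVX_VAS, both highest values being those without estrus replicate 2.

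**Figure D3:**
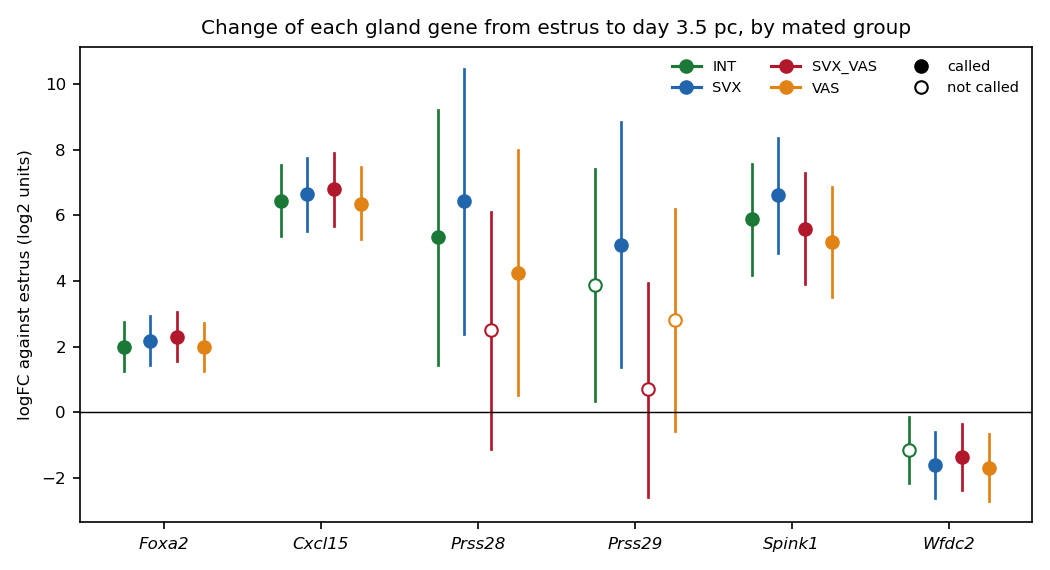
Fitted logFC (log2 units) of each gene against estrus in the 4 mated groups, with lines for the 95% confidence interval and filled points for called changes. The intervals of Prss28 and Prss29 span several log2 units, while those of Foxa2 and Cxcl15 are narrow and the same in sign in every group.

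The upstream sequences of the pair are shown because these genes moved together across the mated libraries. They are the 250 bases before the RefSeq start of each gene on the plus strand of GRCm38.p6, chr17:25308396-25308645 for Prss28 and chr17:25318404-25318653 for Prss29, with the runs of at least 8 bases that both share at the same aligned place in capitals.
Prss28: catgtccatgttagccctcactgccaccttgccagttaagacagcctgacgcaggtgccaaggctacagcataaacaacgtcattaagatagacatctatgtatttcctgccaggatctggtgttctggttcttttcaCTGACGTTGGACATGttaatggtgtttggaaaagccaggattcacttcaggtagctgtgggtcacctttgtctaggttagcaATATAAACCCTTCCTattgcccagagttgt
Prss29: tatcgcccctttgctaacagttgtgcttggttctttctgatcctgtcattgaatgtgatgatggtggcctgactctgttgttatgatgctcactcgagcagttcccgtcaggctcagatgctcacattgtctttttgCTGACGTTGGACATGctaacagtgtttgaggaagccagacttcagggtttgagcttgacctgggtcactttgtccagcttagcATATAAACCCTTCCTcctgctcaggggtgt

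In a pairwise alignment of these windows 66.0% of 241 aligned bases were identical. They shared 2 runs of 15 bases, CTGACGTTGGACATG, at -112 to -98 in Prss28 and -113 to -99 in Prss29, and ATATAAACCCTTCCT, at -30 to -16 in both, which holds TATAAA. Each run was found in 2 of the 32851 promoter windows (0.00609%), those of Prss28 and Prss29. The runs were picked for being in both of these windows, so these 2 finds were certain beforehand and the share is a description. Whether the runs bear on the levels of the 2 genes was not tested. The transcripts, of 1190 and 1181 bases, were 64.5% identical over 1151 aligned bases, and the longest identical stretch was 27 bases. Some reads could match both genes, and how such reads were counted is not given in the sources used here.

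Spink1, the protease inhibitor, lies on chromosome 18 from 43728069 to 43737237 on the minus strand (ENSMUSG00000024503.2). It had 0.476, 1.72 and 0.303 CPM in estrus replicates 1, 2 and 4, from 8, 48 and 4 counts. It had 40.2, 33.4, 109 and 39.4 CPM in INT replicates 1 to 4 and 110, 75.6, 70.1 and 114 CPM in SVX replicates 1 to 4. The whole of SVX lay above 3 of the 4 INT libraries. It had 53.0, 41.9, 36.6 and 51.5 CPM in SVX_VAS replicates 1 to 4 and 23.8, 13.0, 15.7 and 85.4 CPM in VAS replicates 1 to 4. VAS replicates 2 and 3, the libraries that stood apart, were the lowest of the 16 mated ones.

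Means of Spink1 were 0.834 ± 0.775 CPM at estrus (SD, n = 3), 55.5 ± 35.8 in INT, 92.3 ± 22.7 in SVX, 45.8 ± 7.84 in SVX_VAS and 34.4 ± 34.3 in VAS (SD, n = 4 each). It rose in all 4 mated groups, with a logFC of 5.88 (SE 0.80, FDR 3.09e-05) in INT, 6.61 in SVX, 5.60 in SVX_VAS and 5.18 in VAS (highest FDR of these 5.23e-05). Without VAS replicates 2 and 3 the last was 5.82, and the VAS mean was 54.6 CPM (n = 2). Without VAS replicate 4 alone the logFC in VAS was 4.21, and in INT it lay between 5.29 (without INT replicate 3) and 7.10 (without estrus replicate 2). With 1 library left out the logFC of Spink1 was 6.29 to 7.83 in SVX and 5.28 to 6.82 in SVX_VAS. Per length it reached the highest mean level of the 6 genes in SVX, at 219 RPKM against 119 RPKM for Wfdc2.

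The highest libraries of Spink1 were also those of the proteases. INT replicate 3 and SVX replicates 1 and 4 held the top 3 values of Spink1, Prss28 and Prss29 alike, but VAS replicate 3, at 23.0 CPM of Prss28, had the second lowest Spink1 of the 16 mated libraries (15.7 CPM). Over the 16 mated libraries r of Spink1 was 0.56 with Prss28 (rho 0.66) and 0.60 with Prss29 (rho 0.71). Without VAS replicates 2 and 3 these were 0.87 and 0.89, and without the pair of libraries farthest from the protease's median they were 0.37 and 0.41, so that the relation rests in part on the high libraries. With Foxa2, r of Spink1 was 0.20 and with Cxcl15 it was 0.32. Without VAS replicates 2 and 3 these were 0.41 and 0.27. Without the pair of libraries farthest from the median of Foxa2 or of Cxcl15 they were -0.11 and 0.17.

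Wfdc2, the WAP protein, lies on chromosome 2 from 164562413 to 164568510 on the plus strand (ENSMUSG00000017723.11). It had 438, 333 and 459 CPM in estrus replicates 1, 2 and 4, the highest level of the 6 genes at estrus both in CPM and per length (360 RPKM). It had 249, 240, 118 and 132 CPM in INT replicates 1 to 4 and 135, 145, 130 and 133 CPM in SVX replicates 1 to 4. It had 136, 195, 133 and 176 CPM in SVX_VAS replicates 1 to 4 and 279, 46.5, 45.2 and 141 CPM in VAS replicates 1 to 4. Every mated library lay below estrus, and VAS held both the highest and the lowest of them.

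Means of Wfdc2 were 410 ± 67.4 CPM at estrus (SD, n = 3), 185 ± 69.1 in INT, 136 ± 6.32 in SVX, 160 ± 30.6 in SVX_VAS and 128 ± 110 in VAS (SD, n = 4 each). It fell in SVX (logFC -1.59, SE 0.48, FDR 0.00897), in SVX_VAS (-1.36, SE 0.47, FDR 0.0234) and in VAS (-1.68, SE 0.48, FDR 0.00671). In INT the logFC was -1.15 (SE 0.47) and missed the threshold (FDR 0.0547), though it passed without INT replicate 1 (FDR 0.0458). The call in SVX_VAS was lost without any one of estrus replicates 1 and 4 and SVX_VAS replicates 1 and 3 (FDR 0.0570 to 0.0624). Without VAS replicates 2 and 3 the logFC in VAS was -0.97 (FDR 0.0242), and without VAS replicate 1 it was -2.40 (FDR 9.88e-05).

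Wfdc2 varied with the summed level of the epithelium markers. The 8 epithelium markers summed to 4860 ± 748 CPM at estrus (SD, n = 3), 1720 ± 924 in INT, 944 ± 143 in SVX, 1390 ± 512 in SVX_VAS and 1140 ± 826 in VAS (SD, n = 4 each). In INT 6 of the 8 were lower than at estrus and none was higher (median logFC -1.5), and in each other mated group 7 were lower and none higher (medians -2.48 to -1.81), where 12.7% of all genes tested fell in INT and 16.4% to 18.4% in the others. On log2 CPM, r of Wfdc2 with this sum was 0.86 over the 16 mated libraries, whereas it was -0.51 for Foxa2, -0.30 for Cxcl15, -0.41 for Prss28, -0.42 for Prss29 and -0.09 for Spink1. These libraries share tissue makeup and scaling, and the r is a description. It includes VAS replicates 2 and 3, which had the lowest marker sums (697 and 567 CPM) and the lowest Wfdc2 of the mated libraries.

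Per 1000 CPM of epithelium markers, Wfdc2 stood at 84.5 ± 6.81 CPM at estrus (SD, n = 3), 117 ± 25.5 in INT, 146 ± 19.3 in SVX, 120 ± 19.5 in SVX_VAS and 105 ± 39.4 in VAS (SD, n = 4 each). With the epithelium sum in place of the library size, fold changes of all genes shift up, since that sum was lower in the mated libraries. The median logFC over all genes tested became 1.83, 2.35, 1.89 and 2.40 in INT, SVX, SVX_VAS and VAS, and 83.5%, 91.6%, 84.4% and 86.6% of them were called. The logFC of Wfdc2 on this scale was 0.47 (FDR 0.249), 0.79 (FDR 0.0547), 0.51 (FDR 0.214) and 0.31 (FDR 0.447) in the same order, below the median of all genes each time, and it was called in none. On the same scale Foxa2 was at 0.778 ± 0.408 CPM at estrus (SD, n = 3) and at 12.1, 17.5, 13.9 and 18.7 CPM in INT, SVX, SVX_VAS and VAS, the last being 10.6 CPM without VAS replicates 2 and 3, and its logFC was 3.94 to 4.57. That of Cxcl15 was 8.29 to 8.86. Under the library totals the fall of Wfdc2 was not called in VAS with only the groups compared in the fit (logFC -1.66, FDR 0.0796) or in SVX_VAS with glmTreat (-1.36, FDR 0.0936). In INT, where it had missed the threshold, it was called with only the groups compared (-1.11, FDR 0.0162), with a filter at 1 CPM (-1.21, FDR 0.0459) and by DESeq2 (FDR 0.0342).

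**Figure D4:**
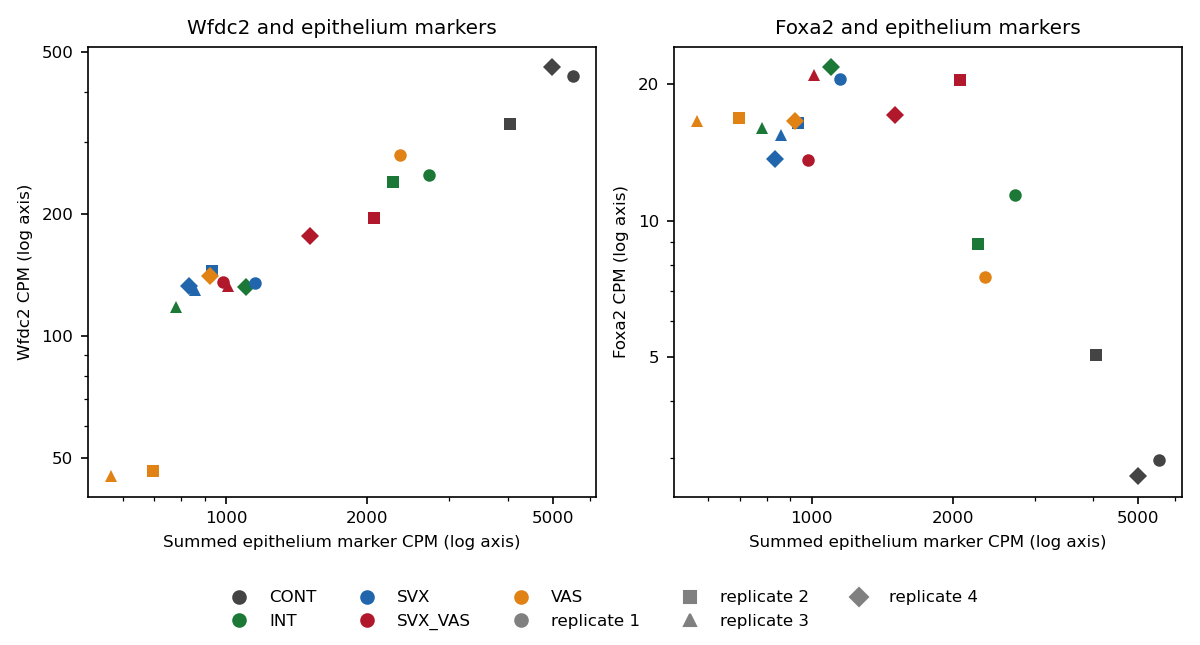
CPM of Wfdc2 (left) and Foxa2 (right) against the summed CPM of 8 epithelium markers in the 19 libraries, both axes logarithmic, with colours for groups and markers for replicate numbers. Wfdc2 rises along the marker sum from VAS replicates 2 and 3 to the 3 estrus libraries, and Foxa2 is lowest at estrus, where the sum is highest.

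Between the mated groups none of the 6 genes was called. The 6 comparisons gave 36 tests of these genes by edgeR, of which 4 had an unadjusted p under 0.05 and the lowest FDR was 0.304. Of all 17222 genes tested, 0% were called in each of the 6 comparisons by edgeR, where between 1.39% and 15.4% had an unadjusted p under 0.05. DESeq2 called 0 to 27 genes, none of them among the 6. Limma-voom called none in the 3 comparisons without VAS and 1656 to 1804 in the 3 with it, Spink1 in SVX against VAS being the only one of the 6 genes (logFC 1.93, FDR 0.0184).

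The largest of these differences was that of Prss29 between SVX and SVX_VAS, where the lowest SVX library (9.22 CPM) was just above the highest SVX_VAS library (8.89 CPM). Its logFC was 4.42 (SE 1.5, 95% interval 1.24 to 7.59, edgeR unadjusted p 0.00947, FDR 1.0). Spink1 did not overlap between these groups either, at a logFC of 1.01 (interval -0.13 to 2.16), where 2.45% of all genes tested did not overlap. In the other 5 comparisons the libraries of all 6 genes overlapped, where 2.60% (SVX against INT), 1.75% (SVX_VAS against INT), 1.23% (VAS against INT), 4.20% (SVX against VAS) and 4.33% (SVX_VAS against VAS) of all genes tested did not. Prss28 was 3.94 higher in SVX (edgeR unadjusted p 0.0151, FDR 1.0), with overlapping libraries.

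Spink1 was higher in SVX than in VAS by 1.43 on the log2 scale (SE 0.55, interval 0.27 to 2.59, edgeR unadjusted p 0.0188, FDR 0.304). Without VAS replicate 4 the difference was 2.40 and called (FDR 0.0127), and without VAS replicates 2 and 3 it was 0.76 (FDR 0.746). Prss29 in SVX_VAS against INT had a logFC of -3.19 (edgeR unadjusted p 0.0401, FDR 1.0), which was -0.14 without INT replicate 3.

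In order of mean CPM, SVX_VAS was highest and VAS lowest of the mated groups for Foxa2 and Cxcl15, and SVX was highest for Prss28, Prss29 and Spink1. For Wfdc2 the order was INT, SVX_VAS, SVX and VAS, but without VAS replicates 2 and 3 the VAS mean was 210 CPM (n = 2) and came first. No neighbours in these orders differed beyond their spread by edgeR. Over the 6 comparisons the 95% intervals reached from -0.75 to 0.95 for Foxa2, from -0.83 to 1.11 for Cxcl15 and from -1.47 to 1.26 for Wfdc2. They reached from -1.84 to 2.59 for Spink1, from -5.78 to 7.01 for Prss28 and from -6.22 to 7.59 for Prss29.

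The genes whose log2 CPM followed each of the 6 most closely over the 16 mated libraries differed, except that Prss28 and Prss29 shared Cyp26a1. For Foxa2 they were Rdh16 (r 0.94), Hyal1 (0.90) and Tmeff2 (0.89), and for Cxcl15 they were Slc44a3 (0.92), 9030622O22Rik (0.90) and Clcn5 (0.89). After each other, Prss28 and Prss29 were nearest to Cyp26a1, which encodes an enzyme that breaks down retinoic acid (0.89 and 0.88), followed by Tac2 (0.88) for Prss28 and Slc46a2 (0.88) for Prss29. For Spink1 they were Lgmn (0.94), Mgp (0.93) and Bgn (0.92). For Wfdc2 they were Ctnna1, which encodes a catenin of cell junctions, Gm26568 and Elovl5 (0.99 each). These genes were picked for the highest r among all genes tested, VAS replicates 2 and 3 included, and r is a description only. Over all 19 libraries Slc44a3 and Clcn5 ranked 2223 and 1312 by r with Cxcl15, and Lgmn ranked 1952 with Spink1. Rdh16 and Hyal1 ranked 444 and 424 with Foxa2, and the other genes named ranked 49 or better.

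Other genes known from uterine glands did not all move with Foxa2. Of 8 such genes, all tested, 2 rose and 2 fell in INT against estrus, with a median logFC of -0.20 against -0.01 over all genes tested. Ttr, which encodes the thyroid hormone carrier transthyretin, had the largest fitted logFC (6.64, SE 0.81, FDR 1.27e-05), a size that rests on at most 2 counts in any estrus library, and reached 4.31 ± 1.79 CPM in INT (SD, n = 4). Calca, which encodes calcitonin, was the other that rose (5.93, SE 0.91, FDR 8.12e-05), from at most 3 counts in any estrus library. Both Ttr and Calca passed the filter on low counts only through mated libraries. The numbers of genes called in this list are therefore a description and no support. Pax8, which encodes a transcription factor of the reproductive tract epithelium, had the lowest logFC (-1.31, SE 0.25, FDR 4.57e-04), at 282 ± 23.7 CPM at estrus (SD, n = 3) and 114 ± 34.6 CPM in INT (SD, n = 4). Sox9, a transcription factor of gland cells, also fell (-1.04, SE 0.37, FDR 0.0299).

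Lif, the gland cytokine needed for implantation, was at 50.8 ± 7.98 CPM at estrus (SD, n = 3) and 21.3 ± 16.5 CPM in INT (SD, n = 4), which did not pass the test (logFC -1.25, FDR 0.0901). In SVX 3 of these 8 genes rose and 3 fell, in SVX_VAS 2 and 2, and in VAS 3 and 2, where 41.5%, 38.5% and 40.4% of all genes tested were called in either direction, against 33.6% in INT. Ttr and Calca rose and Pax8 and Sox9 fell in each of these groups too. In SVX the fall of Lif was called (logFC -1.56, FDR 0.0333).

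Of 11 genes known for the development of the glands, all tested, 4 rose and 1 fell in INT, where 20.9% of all genes tested rose and 12.7% fell. Lef1, a transcription factor of the Wnt pathway, changed most (logFC 4.48, SE 0.45, FDR 3.32e-06), from 4.0 ± 1.69 CPM at estrus (SD, n = 3) to 90.7 ± 36.7 CPM in INT (SD, n = 4). Hoxa10, Hoxa11 and Fgfr2 were the others that rose, and Wnt4, a secreted Wnt ligand, fell (-1.38, SE 0.55, FDR 0.0462). The list's median logFC was 0.54 in INT and 0.44 to 0.60 in the other mated groups, where 5 or 6 rose and 1 or 2 fell, against 22.1% to 23.2% and 16.4% to 18.4% of all genes tested. The receptors Esr1 (logFC -0.32) and Pgr (0.23) were not called in INT, nor in SVX or SVX_VAS, and Esr1 fell in VAS (-0.74, FDR 0.0185).

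Few relatives of the proteases and of the Kazal inhibitor were measured well enough to test. Of 10 other genes of the tryptase cluster on chromosome 17 only Prss22 and Prss32 passed the filter, and both were lower in INT than at estrus without being called (logFC -2.24, FDR 0.107 and -3.36, FDR 0.0837). In SVX both fell (fitted -4.82, FDR 0.00361 and -8.06, FDR 0.00438), and the size for Prss32 rests on at most 2 counts in any SVX library. Neither was called in SVX_VAS (-2.57, FDR 0.0623 and -3.07, FDR 0.0995) or in VAS (-2.09, FDR 0.115 and -3.0, FDR 0.0992). Among all genes tested, 12.7% fell in INT, 18.4% in SVX, 16.4% in SVX_VAS and 17.2% in VAS. Of 6 other Kazal inhibitors 2 were tested. Spink8 rose in INT (2.32, SE 0.48, FDR 9.13e-04), as did 20.9% of all genes tested. Spink12 was lower in INT without being called (-2.34, FDR 0.239). Spink12 had 71.3 ± 8.57 CPM at estrus (SD, n = 3) and fell in SVX (-6.81, FDR 0.00764) and in SVX_VAS (-5.23, FDR 0.0209).

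None of the other WFDC genes tested was called lower against estrus. Of 10 listed, 4 were tested, and Wfdc3, Wfdc1 and Wfdc15b rose in all 4 mated groups. Among all genes tested, 20.9% rose in INT, 23.1% in SVX, 22.1% in SVX_VAS and 23.2% in VAS. Wfdc3 had the largest change in INT (logFC 2.93, SE 0.36, FDR 1.23e-05), from 1.15 ± 0.230 CPM at estrus (SD, n = 3) to 8.91 ± 3.52 CPM in INT (SD, n = 4). It passed the filter on low counts only through mated libraries, so the number of these genes that rose is a description. Wfdc10 had the lowest logFC in INT (-0.75, FDR 0.287, not called). Among 7 chemokines and receptors of the ELR type, which Cxcl15 belongs to, only Cxcl5 was tested, with a logFC of 0.53 (FDR 0.792) in INT. It was called in VAS (3.57, FDR 0.0429) and not in SVX_VAS (3.01, FDR 0.0810), and the difference of SVX_VAS from VAS was not called (-0.56, FDR 0.796). Genes of seminal vesicle secretion, 8 of them, were all below the filter.

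Markers of other cell types also differed between the groups, beside 20.9% of all genes tested called higher and 12.7% lower in INT. Stroma markers summed to 4560 to 4850 CPM at estrus and 5930 to 7800 CPM in INT, with 3 of 6 higher by the test, and to 1490 to 7660 CPM in VAS (mean 4210 CPM against 4720 CPM at estrus), where 2 of 6 were higher and none lower (median logFC 0.36). Endothelium markers summed to 94.4 to 148 CPM at estrus and 382 to 596 CPM in INT, with 3 of 3 higher. Of the smooth muscle markers 1 of 5 was higher in INT, at 256 to 608 CPM at estrus and 377 to 1120 CPM in INT, and of the macrophage markers 2 of 3 were higher and 1 lower, at 78.4 to 110 CPM and 95.1 to 141 CPM. Of 3 oviduct markers, Ovgp1 was higher in INT and Tekt1 did not pass the filter. Foxj1 was at 5.61 to 8.04 CPM at estrus and 0.342 to 3.10 CPM in INT, which was not called (logFC -2.07, FDR 0.0639). Whether oviduct tissue was taken along with the uterus was not tested. Neutrophil markers summed to 5.86 to 23.0 CPM in VAS and 1.72 to 6.57 CPM in the other groups. Of these 4 markers only Retnlg passed the filter. It was not called in VAS against estrus (logFC 0.72, FDR 0.104) or against INT (0.65, FDR 0.452). The part of these cell types in the values of the 6 genes was not tested.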

How the data were processed

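Per the labels and the study's methods, total RNA libraries were made with the TruSeq Stranded kit and sequenced from both ends. The authors trimmed adapters with AdapterRemoval, aligned the reads with STAR to GRCm38/mm10 and counted them per gene with featureCounts. The strand setting is not given in the sources used here. They deposited raw counts per gene for 19 libraries, with the length of each gene, and these counts were used as deposited. The 37 mitochondrial genes hold no counts, and 1.51% of the genes matched no symbol.

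All 19 libraries entered 1 fit in R 4.3.3 with edgeR 4.0.16 (TMM, a mean per group, no replicate block, glmQLFit and glmQLFTest), on genes that reached 3 CPM in 3 or more libraries. The FDR is Benjamini-Hochberg over all 17222 genes tested. The standard error is the logFC over the root of the F statistic. CPM use TMM factors, RPKM the deposited gene length, and log2 CPM a prior count of 2. The fit was tested on simulated data. Replicates are pooled samples, so that p-values measure the spread between pools. Totals and the limit of 3 counts are given with the results.

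Alternatives were the tools DESeq2 1.42.0 and limma-voom (limma 3.58.1), edgeR with upper quartile factors or those of DESeq2, glmTreat at 1.5-fold, no filter or a filter at 1 CPM, only the groups compared, a replicate block, the epithelium marker sum as library size and each library left out in turn. Leaving out VAS replicates 2 and 3 together was added after seeing the data. The 6 genes and the lists were chosen with earlier results of these data known. Besides the 6 genes, the rule named the genes with the largest and smallest logFC in INT of each list and the 3 genes closest to each of the 6 by r. Other genes named from a list, namely Calca, Sox9, Lif, Hoxa10, Hoxa11, Fgfr2, Wfdc1, Wfdc15b, Foxa1, Foxa3 and the oviduct markers, were chosen after their values were seen. Upstream sequences are those of RefSeq on GRCm38.p6, matched by symbol and aligned with Biopython 1.88. They were read for 5 of the 6 genes, since for these genes windows on chromosome 18, which holds Spink1, were left out. Figures were drawn with matplotlib 3.10.9.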

Additional observations from a re-analysis of the deposited data

Results flagged for a closer look

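In 5 of 24 combinations of a gene and a mated group, 1 library lay farther from the rest of its group than Dixon's 95% limit allows on the CPM scale. That limit is passed by chance in about 1 of 20 groups of normally spread values, which CPM this skewed are not, and on log2 CPM 2 of the 5 were past it, Foxa2 in VAS replicate 1 and Spink1 in INT replicate 3. Foxa2 was at 7.50 CPM in VAS replicate 1 and at 16.6 to 16.9 CPM in the other 3 VAS libraries. INT replicate 3 stood out for 3 genes on CPM. There Prss28 was at 108 CPM against 0.490 to 6.66 CPM in the other INT libraries, Prss29 was at 186 CPM against 0.980 to 11.0 CPM, and Spink1 was at 109 CPM against 33.4 to 40.2 CPM. These 3 genes correlate with one another, so their flags in 1 library are not independent. Spink1 was also at 85.4 CPM in VAS replicate 4 against 13.0 to 23.8 CPM in the other VAS libraries, 2 of which are those that stand apart.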

How the results depend on the processing

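Foxa2 and Cxcl15 were called against estrus in all 4 mated groups under each of the alternatives run, and Spink1 under each of them except limma-voom in VAS (logFC 4.82, FDR 0.0519). Leaving out 1 library moved the logFC of Foxa2 in INT between 1.74 and 2.34 and that of Cxcl15 between 5.88 and 7.96. With the epithelium marker sum as library size, which by its construction moved the median logFC over all genes to between 1.83 and 2.40, the logFC of Wfdc2 was 0.47, 0.79, 0.51 and 0.31 in INT, SVX, SVX_VAS and VAS, below that median each time. Limma-voom called 3 of the 6 genes in VAS against estrus in place of 5, where it called 50.8% of all genes tested, and 1 (Spink1) in SVX against VAS in place of 0, where it called 9.62%. Leaving out 1 library gave 0 to 1 calls in SVX against VAS, the 1 being Spink1 without VAS replicate 4, where 3.97% of all genes were called. Calls of Prss28, Prss29 and Wfdc2 changed under several alternatives: limma-voom called neither protease in any group (FDR 0.226 to 0.615 where edgeR had called them), and glmTreat did not call Prss28 in INT (FDR 0.0541) or VAS (FDR 0.101). DESeq2 called all 6 genes in INT (34.5% of all genes), with an FDR of 0.00891 for Prss29 and 0.0342 for Wfdc2. The causes of these differences were not tested. Against estrus, and leaving aside the epithelium scaling, which moves all genes, 353 of the values kept their side of the threshold, 30 lost a call, 6 gained one and none reversed.

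Replicate numbers did not pair the samples. Libraries of the same number in different groups correlated at -0.69 to 0.58 (36 pairs, median 0.05) and those of different numbers at -0.75 to 0.77, and 4 of 19 libraries correlated best with their own number. With a replicate block, 3 of the 6 genes were called in INT (32.5% of all genes), 5 in SVX (40.1%), 4 in SVX_VAS (37.2%) and 4 in VAS (39.3%), Prss28 in INT (logFC 3.73, FDR 0.145) and VAS (3.23, FDR 0.147) and Prss29 in SVX (4.40, FDR 0.0667) being those no longer called.

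Depth limits the estrus values of Cxcl15, Prss28 and Spink1, which rest on 2 to 48 counts a library, more than it limits Foxa2 (36 to 141 counts) or Wfdc2 (6060 to 9289 counts).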
